A study of Mus musculus with 12 samples.

Results

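Crypt stem cell marker genes are genes whose transcripts mark the cycling stem cells at the base of the small intestinal crypt. The 10 markers described here, Lgr5, Olfm4, Ascl2, Smoc2, Axin2, Tnfrsf19, Prom1, Cdk6, Msi1 and Rgmb, were taken by gene symbol. All 10 were among the 18929 genes listed in the deposited count tables, and all 10 passed the filter on low counts in every comparison. In mutant enteroids most of these markers were lower than in control enteroids, with Tnfrsf19 the exception that was higher in both mutants.

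The study asked how the histone deacetylases HDAC1 and HDAC2, which remove acetyl groups from histones and other proteins, each act within intestinal epithelial cells. It grew enteroids, epithelial cultures grown in Matrigel from mouse jejunal crypts, for 5 days in ENR medium, which supplies EGF, Noggin and R-spondin 1, and sequenced polyadenylated RNA of 4 libraries per group. The groups were control enteroids, called wild-type in the labels and villin-Cre control in the study, Hdac1-deficient enteroids (mutant HDAC1-/-) and Hdac2-deficient enteroids (mutant HDAC2-/-), the mutants made from floxed alleles with a Cre driven by the epithelial villin promoter, on a mixed C57BL/6J, 129SV and CD1 background. The methods name 1 mouse per genotype as the source of crypts. Whether more than 1 animal stands behind the 4 libraries of a genotype is not given, so the p-values measure the spread between these libraries, and genotype cannot be told apart from the mouse and the culture grown from it. The age of the mice is not given in the sources used here.

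In the crypt, stem cells are kept by Wnt signals from neighbouring Paneth and stromal cells. R-spondins bind LGR-family receptors and strengthen the Wnt signal, which reaches the nucleus through β-catenin and TCF/LEF factors and switches on targets such as Lgr5, Ascl2, Axin2 and Tnfrsf19. As daughter cells leave the crypt base they lose these transcripts, divide for a time, and mature into enterocytes or secretory cells.

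Each library held between 20693200 and 30658628 counts on genes. Levels are given as CPM, counts per 1000000 counts after correction for library composition by edgeR's TMM factors, and a floor of 3 counts equalled 0.0971 to 0.145 CPM, which covers counting error only. Differences are log2 fold changes from edgeR's quasi-likelihood test with their standard error (SE) and Benjamini-Hochberg adjusted p over all tested genes, and a gene passed the test at an adjusted p of at most 0.05. Each targeted gene was lower in its mutant, but not to the same extent. The log2 fold change against control was -4.40 for Hdac1 in Hdac1-deficient and -0.84 for Hdac2 in Hdac2-deficient enteroids. Hdac1 ranged from 3.38 to 5.08 CPM in Hdac1-deficient and from 88.0 to 94.5 CPM in control enteroids, and Hdac2 from 73.2 to 78.8 CPM in Hdac2-deficient and from 132.1 to 140.2 CPM in control enteroids. The other deacetylase gene was also lower and past the test. Hdac2 had a log2 fold change of -0.28 in Hdac1-deficient and Hdac1 of -0.26 in Hdac2-deficient enteroids. The counts cover the whole gene, and which exons the floxed alleles remove is not given in the sources used here. The summed level of 6 general intestinal epithelial genes, among them Epcam, ranged from 4862 to 5081 CPM in control and from 5078 to 5177 CPM in Hdac1-deficient libraries. It was higher in every Hdac2-deficient library, from 6082 to 6281 CPM. The 6 mesenchymal, endothelial and blood cell genes that were listed summed to between 4.56 and 8.17 CPM, most of it Vim, and the stromal genes Col1a1 and Pdgfra held between 0 and 6 counts in every library. Of that list, Itgam rose in both mutants, from at most 0.939 CPM in control to at most 2.47 and 3.44 CPM in Hdac1-deficient and Hdac2-deficient enteroids (edgeR adjusted p = 8.96e-06 and 8.47e-08). Whether it had a part in the differences of the markers was not tested. In bulk RNA, fewer stem cells and less marker RNA per stem cell cannot be told apart.

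The sequences that show which parts of these genes are at issue are given first. The marker gene for which quantitative PCR primers were also designed was Lgr5. Lgr5 (ENSMUSG00000020140) lies on the minus strand of chromosome 10 of GRCm38 from 115450311 to 115587780. These primers match a stretch of 143 bases that joins exons 15 and 16 of transcript ENSMUST00000020350, within chr10:115456698-115457803, and the stretch was found in 4 of the 8 annotated Lgr5 transcripts. The PCR therefore reads only those transcripts, whereas the counts below cover the whole gene. By quantitative PCR the study reported lower Lgr5 in Hdac1-deficient enteroids, and its text names no change in Hdac2-deficient enteroids. In the counts Lgr5 was lower in both mutants. Whether the choice of transcripts had a part in this was not tested. The primers are shown 5′ to 3′.

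Lgr5 forward: cgagccttacagagcctgatacc

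Lgr5 reverse: ttgccgtcgtctttattccattgg

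The bases before the markers' start sites were searched for the TCF/LEF core TCAAAG or its reverse complement CTTTGA. They were also searched for the RBPJ core TGGGAA or TTCCCA of Notch signalling. RefSeq start sites (GRCm38.p6) with 250 bases before them were found for 7 of the 10 markers, in 11 windows. The TCF/LEF core was in 1 of the 11 windows, against 13.8% of the 32851 windows of all genes. It lay 201 bases before a start site of Tnfrsf19, in capitals in the stretch at chr14:61038108-61038237 (minus strand), which holds no annotated exon. The other Tnfrsf19 window, at chr14:61046856-61047105, holds neither core.

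Tnfrsf19: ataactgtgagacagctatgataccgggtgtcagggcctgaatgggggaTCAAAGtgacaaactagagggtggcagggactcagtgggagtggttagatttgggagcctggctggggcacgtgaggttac

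The Wnt targets Ascl2 and Axin2, which fell in both mutants, are shown as well. Their windows lie at chr7:142969265-142969514 (minus strand) and chr11:108920099-108920348 (plus strand), end at the base before the start site, and hold neither core.

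Ascl2: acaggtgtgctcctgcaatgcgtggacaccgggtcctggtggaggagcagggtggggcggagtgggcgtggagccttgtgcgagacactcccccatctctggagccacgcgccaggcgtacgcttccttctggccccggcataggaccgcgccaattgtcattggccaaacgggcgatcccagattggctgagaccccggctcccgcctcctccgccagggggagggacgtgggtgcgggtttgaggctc

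Axin2: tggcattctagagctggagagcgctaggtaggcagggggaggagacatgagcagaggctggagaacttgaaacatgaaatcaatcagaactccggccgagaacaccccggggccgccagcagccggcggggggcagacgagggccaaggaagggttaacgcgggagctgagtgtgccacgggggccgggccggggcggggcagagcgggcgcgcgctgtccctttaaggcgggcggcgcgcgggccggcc

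The RBPJ core was in 2 of the 11 windows, against 21.6% of all windows. They were that of Olfm4, which holds 51 annotated exon bases, and that of Prom1 at chr5:44101737-44101986. All 250 bases of the latter are annotated exon, and the other Prom1 window, at chr5:44094769-44095018, holds neither core. A match describes letters in a short window, not a bound site, and a window without one says nothing of the factor. Whether either core had a part in the direction of any marker was not tested.

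**Figure D1:**
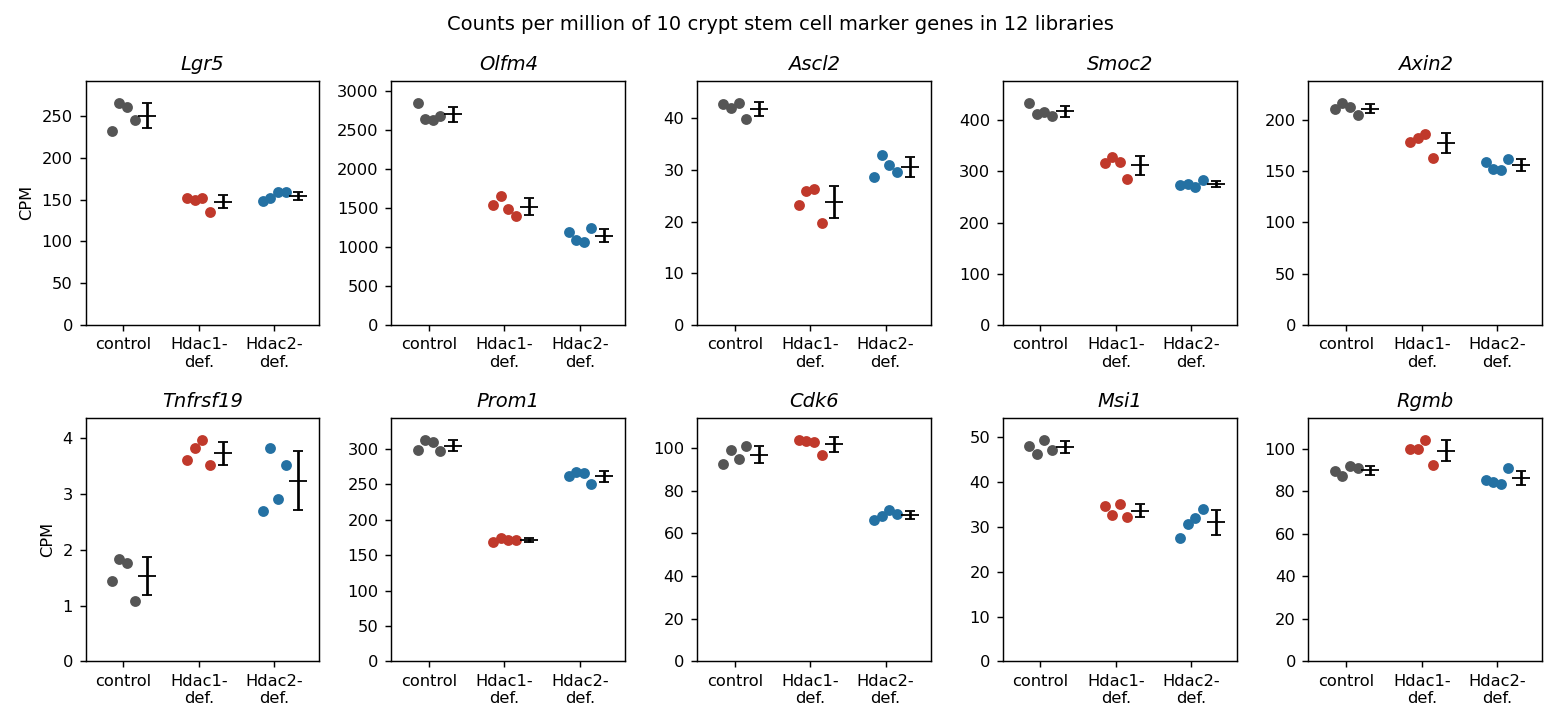
Each panel plots 1 marker, with CPM on the vertical axis from 0 and the 4 libraries of control (grey), Hdac1-deficient (red) and Hdac2-deficient (blue) enteroids as points; the bar beside them is the mean with the SD. In 7 of the 10 panels the control group has the highest mean, and Tnfrsf19 is the only panel in which control is lowest.

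The receptor and surface proteins among the markers divided. Lgr5, the R-spondin receptor that defines these stem cells, was counted at 232.0, 265.9, 261.1 and 245.2 CPM in the control libraries. It was at 151.8, 150.1, 151.6 and 135.7 CPM in Hdac1-deficient enteroids and at 149.0, 152.4, 159.0 and 159.0 CPM in Hdac2-deficient enteroids. Every mutant library was below every control library, while the libraries of the mutants overlapped. Lgr5 fell by 40.7% in Hdac1-deficient enteroids, a log2 fold change of -0.75 (SE 0.04, edgeR adjusted p = 5.6e-11). It fell by 37.9% in Hdac2-deficient enteroids, a log2 fold change of -0.69 (SE 0.04, adjusted p = 1.6e-11). The direct difference of Hdac1-deficient minus Hdac2-deficient enteroids was -0.07 (95% confidence interval -0.16 to 0.02, adjusted p = 0.18), so the level in Hdac1-deficient enteroids was between 0.897-fold and 1.01-fold that in Hdac2-deficient enteroids at that confidence. Without Hdac1-deficient replicate 4, the lowest of its group, the log2 fold change against control was -0.72.

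Tnfrsf19 (ENSMUSG00000060548, chr14:60963875-61046490, minus strand), also called Troy, is a member of the tumour necrosis factor receptor family and a Wnt target of Lgr5-expressing cells. It was the lowest of the markers, with 43, 52, 53 and 26 counts in the control libraries, or 1.44, 1.84, 1.76 and 1.09 CPM. The Hdac1-deficient libraries held 96, 118, 121 and 97 counts, or 3.60, 3.82, 3.97 and 3.52 CPM, and the Hdac2-deficient libraries 73, 98, 60 and 81 counts, or 2.69, 3.83, 2.90 and 3.51 CPM. All 8 mutant libraries were above all 4 control libraries. Tnfrsf19 rose 2.43-fold in Hdac1-deficient enteroids (log2 fold change 1.28, SE 0.14, edgeR adjusted p = 1.7e-07) and 2.11-fold in Hdac2-deficient enteroids (1.07, SE 0.17, adjusted p = 1.1e-05). The rise in Hdac2-deficient enteroids was 0.95 without control replicate 4, the library with 26 counts, and 0.98 without Hdac2-deficient replicate 2, in each case just under 2-fold and past the test. The mutants differed by 0.21 (95% confidence interval -0.07 to 0.48, adjusted p = 0.22).

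Prom1 (ENSMUSG00000029086, chr5:43993620-44102032, minus strand) encodes CD133, a glycoprotein of membrane protrusions. Its control libraries stood at 298.5, 312.5, 310.3 and 296.6 CPM, its Hdac2-deficient libraries at 261.3, 267.1, 265.6 and 249.8 CPM, and its Hdac1-deficient libraries at 168.8, 174.5, 171.1 and 171.4 CPM. The 3 groups did not overlap, and the Hdac1-deficient libraries were the lowest. Prom1 fell by 43.1% in Hdac1-deficient enteroids (log2 fold change -0.81, SE 0.03, edgeR adjusted p = 1.1e-14) and fell by 13.6% in Hdac2-deficient enteroids (-0.21, SE 0.03, adjusted p = 3.4e-06). The direct difference between the mutants, -0.60 (SE 0.03, adjusted p = 4.1e-15), was the widest in size among the 10 markers.

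Rgmb (ENSMUSG00000048027, chr17:15803188-15831039, minus strand) is a membrane-anchored co-receptor for bone morphogenetic proteins, signals that oppose the stem cell state outside the crypt base. Its level was 89.4, 87.2, 91.6 and 90.7 CPM in control, 99.8, 99.6, 104.1 and 92.4 CPM in Hdac1-deficient, and 85.4, 84.5, 83.6 and 91.1 CPM in Hdac2-deficient enteroids. The Hdac1-deficient libraries were all above the others, while control and Hdac2-deficient libraries overlapped. Rgmb rose in Hdac1-deficient enteroids by a log2 fold change of 0.16 (SE 0.04, edgeR adjusted p = 0.0015). Its difference in Hdac2-deficient enteroids was -0.05 (95% confidence interval -0.12 to 0.03, adjusted p = 0.24).

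The secreted proteins had the highest levels. Olfm4 (ENSMUSG00000022026), a secreted glycoprotein of the olfactomedin family, lies on the plus strand of chromosome 14 from 79984081 to 80023139. It stood at 2849, 2648, 2633 and 2689 CPM in control, 1537, 1656, 1483 and 1401 CPM in Hdac1-deficient and 1191, 1087, 1069 and 1240 CPM in Hdac2-deficient enteroids. The groups did not overlap and the Hdac2-deficient libraries were the lowest. Olfm4 fell by 43.2% in Hdac1-deficient enteroids (log2 fold change -0.82, SE 0.05, edgeR adjusted p = 6.1e-12) and fell by 57.3% in Hdac2-deficient enteroids (-1.23, SE 0.04, adjusted p = 3.6e-14), the only marker that fell more than 2-fold in either mutant. The mutants differed by 0.41 (SE 0.05, adjusted p = 2.3e-06), with Hdac2-deficient enteroids lower.

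Smoc2 (ENSMUSG00000023886, chr17:14279506-14404790, plus strand), a secreted calcium-binding matrix protein, took the same order of groups. Its control libraries ranged from 407.8 to 433.5 CPM, its Hdac1-deficient libraries from 285.0 to 327.9 CPM and its Hdac2-deficient libraries from 269.4 to 283.2 CPM. Smoc2 fell, with a log2 fold change of -0.41 (SE 0.04, edgeR adjusted p = 1.8e-08) in Hdac1-deficient and of -0.59 (SE 0.03, adjusted p = 1.8e-13) in Hdac2-deficient enteroids, and the mutants differed by 0.18 (adjusted p = 1.5e-04).

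Ascl2 and Axin2, the nuclear factor and the feedback gene whose upstream sequences are printed above, fell in opposite order of size. Ascl2 (ENSMUSG00000009248, chr7:142966829-142969264, minus strand) is a transcription factor of stem cell fate that responds to Wnt. It was counted at 42.7, 41.9, 42.9 and 39.9 CPM in control, 23.1, 26.0, 26.3 and 19.7 CPM in Hdac1-deficient, and 28.7, 33.0, 31.0 and 29.6 CPM in Hdac2-deficient enteroids. Ascl2 fell by 42.5% (log2 fold change -0.80, SE 0.07, edgeR adjusted p = 4.1e-08) in Hdac1-deficient and fell by 26.5% (-0.44, SE 0.05, adjusted p = 5.2e-08) in Hdac2-deficient enteroids, and it was lower in the former, with a direct difference of -0.36 (SE 0.07, adjusted p = 3.0e-04).

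Axin2 (ENSMUSG00000000142, chr11:108920349-108950783, plus strand) is a scaffold of the complex that degrades β-catenin, and a negative feedback target of Wnt. Its libraries ranged from 205.2 to 216.6 CPM in control, from 163.5 to 186.2 CPM in Hdac1-deficient and from 150.8 to 162.5 CPM in Hdac2-deficient enteroids. The groups were apart, but the gap between the mutants, from 162.5 to 163.5 CPM, was small. Axin2 fell by 15.1% (log2 fold change -0.24, SE 0.04, edgeR adjusted p = 1.6e-05) in Hdac1-deficient and fell by 25.5% (-0.42, SE 0.03, adjusted p = 1.1e-10) in Hdac2-deficient enteroids, and the mutants differed by 0.19 (SE 0.04, adjusted p = 1.1e-04).

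Msi1 (ENSMUSG00000054256, chr5:115429599-115455698, plus strand), an RNA-binding protein of stem and progenitor cells, ranged from 46.3 to 49.4 CPM in control, from 32.2 to 35.2 CPM in Hdac1-deficient and from 27.5 to 34.0 CPM in Hdac2-deficient enteroids. Msi1 was lower in each mutant, by log2 fold changes of -0.49 (SE 0.04, edgeR adjusted p = 6.4e-09) and -0.61 (SE 0.05, adjusted p = 1.8e-09). The direct difference of 0.12 (unadjusted 95% confidence interval 0.01 to 0.23, adjusted p = 0.064) missed the threshold. It passed without control replicate 1 (0.13, adjusted p = 0.044), Hdac1-deficient replicate 2 (0.15, adjusted p = 0.046), Hdac1-deficient replicate 4 (0.14, adjusted p = 0.043) or Hdac2-deficient replicate 4 (0.17, adjusted p = 0.016), always with Msi1 lower in Hdac2-deficient enteroids.

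Cdk6 (ENSMUSG00000040274, chr5:3341485-3531008, plus strand), the kinase that drives cells through G1 together with D-type cyclins, separated the mutants. It stood at 92.3, 99.1, 94.6 and 101.1 CPM in control, 103.7, 103.3, 102.9 and 96.6 CPM in Hdac1-deficient, and 66.3, 68.0, 70.9 and 69.2 CPM in Hdac2-deficient enteroids. Control and Hdac1-deficient libraries overlapped and all Hdac2-deficient libraries were below them. Cdk6 fell by 28.5% in Hdac2-deficient enteroids (log2 fold change -0.48, SE 0.04, edgeR adjusted p = 4.9e-10). Its difference in Hdac1-deficient enteroids was 0.09 (unadjusted 95% confidence interval 0.01 to 0.17, adjusted p = 0.057), and the value was 0.11 (adjusted p = 0.019) without Hdac1-deficient replicate 4 and 0.11 (adjusted p = 0.034) without control replicate 4. The mutants differed by 0.57 (SE 0.04, adjusted p = 1.5e-12).

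**Figure D2:**
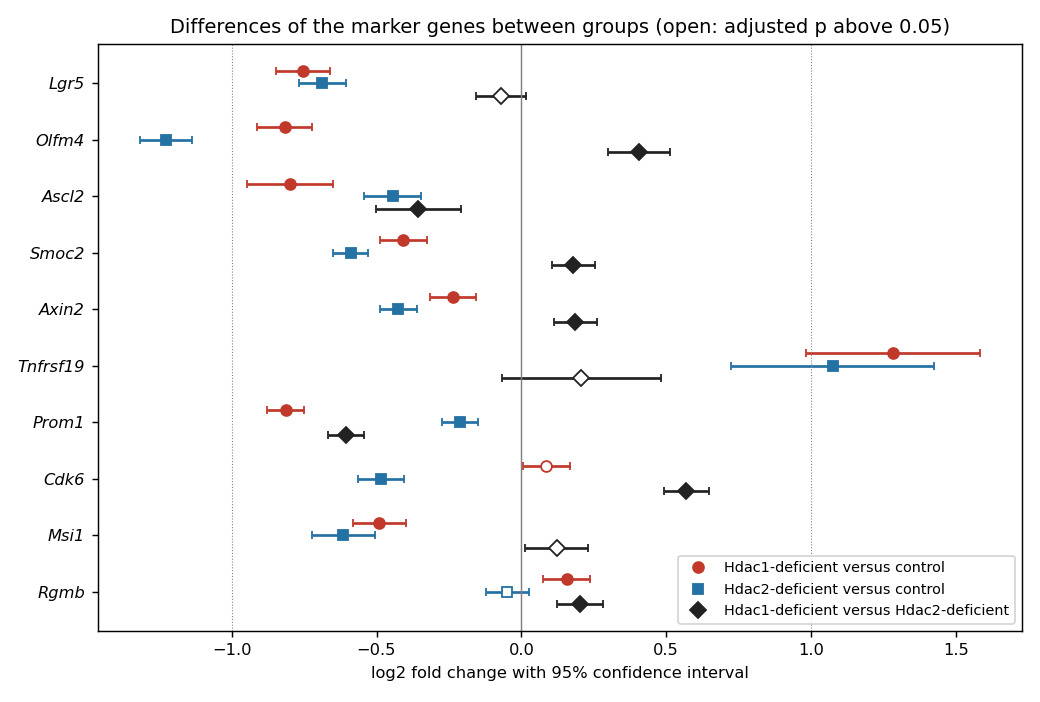
The horizontal axis is the log2 fold change of each marker with its unadjusted 95% confidence interval, for Hdac1-deficient (red circles) and Hdac2-deficient enteroids (blue squares) against control and for Hdac1-deficient against Hdac2-deficient enteroids (black diamonds). Open symbols missed an adjusted p of 0.05, dotted lines mark a 2-fold difference, and the red and blue symbols of Tnfrsf19 at 1.28 and 1.07 are the only ones to the right of a 2-fold rise.

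Counted together, 9 of the 10 markers passed the test in Hdac1-deficient enteroids, 7 of them lower and 2 higher, and 1 missed the threshold. Across all 14246 tested genes 64.6% passed, 31.9% lower and 32.7% higher. Only Tnfrsf19 passed the test at more than 2-fold, where 10.6% of all tested genes did, 3.71% lower and 6.87% higher. In Hdac2-deficient enteroids 9 markers passed, 8 of them lower and 1 higher, and 1 missed the threshold, against 62.3% of 14007 tested genes, 30.9% lower and 31.4% higher. More than 2-fold differences were found for Olfm4, lower, and Tnfrsf19, higher, against 8.3% of all tested genes, 2.84% lower and 5.45% higher. The libraries of mutant and control did not overlap for 9 of 10 markers in each comparison, against 58.4% and 55.9% of tested genes. The markers and the other gene lists were chosen with earlier results of these data known. Their shares here and below therefore describe the lists and test nothing.

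Among the markers, the median log2 fold change was -0.45 for the Hdac1 deletion and -0.46 for the Hdac2 deletion, while the median over all tested genes was -0.0040 and -0.0036. In size, the differences of Lgr5, Olfm4, Ascl2 and Prom1 in Hdac1-deficient enteroids exceeded those of 84.4% to 86.0% of tested genes, and the rise of Tnfrsf19 those of 92.9%. Those of Axin2, Rgmb and Cdk6 exceeded 47.4%, 34.4% and 19.6%. In Hdac2-deficient enteroids Olfm4 exceeded 94.1% of tested genes, Tnfrsf19 92.7% and Lgr5 85.3%, against 47.0% for Prom1 and 12.1% for Rgmb.

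Both comparisons use the same 4 control libraries, so their values are set side by side only. In the direct comparison of the mutants, where the control libraries entered the filter on low counts, the scaling and the estimate of the spread, 5 markers, Olfm4, Smoc2, Axin2, Cdk6 and Rgmb, stood higher after loss of Hdac1 than after loss of Hdac2, 2, Ascl2 and Prom1, were lower, and 3 missed the threshold, against 45.9% of 14510 tested genes that passed, 22.3% higher and 23.7% lower. None of the 10 differed more than 2-fold between the mutants, against 5.62% of tested genes, 2.74% higher and 2.89% lower. For 7 of the 10 markers the libraries of the mutants did not overlap, against 41.7% of all tested genes. All 3 groups were apart for 5 markers: Olfm4, Smoc2 and Axin2, lowest in Hdac2-deficient enteroids, and Ascl2 and Prom1, lowest in Hdac1-deficient enteroids.

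The levels of different genes are comparable only per length. In RPKM, which is CPM divided by the kilobases of annotated exon, Olfm4 was at 913 in control enteroids, followed by Smoc2 at 60.1, Prom1 at 42.4 and Axin2 at 38.4. Ascl2 at 25.8 and Lgr5 at 24.5 came next and their libraries overlapped, so their order is not set. The length counts every annotated exon of a gene, 10264 bases for Lgr5, whose transcript ENSMUST00000020350 is 4714 bases long. With the shorter length Lgr5 would stand higher, so its place among the markers depends on that choice. Rgmb at 11.7, Msi1 at 8.24, Cdk6 at 6.92 and Tnfrsf19 at 0.323 RPKM were the lowest.

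In Hdac1-deficient enteroids Axin2, at 32.3 RPKM, stood above Prom1 at 23.9 RPKM, the reverse of control. Rgmb, at 11.7 RPKM against 24.5 RPKM of Lgr5 in control, was at 12.9 RPKM beside Lgr5 at 14.4 RPKM, and their libraries overlapped. That overlap also depends on the exon length used for Lgr5. In Hdac2-deficient enteroids the order of the first 7 genes was that of control, and Msi1 and Cdk6 overlapped at 5.35 and 4.91 RPKM. Olfm4 made up 64.9% ± 1.08 (SD, n = 4) of the summed CPM of the 10 markers in control. The share was 58.6% ± 1.10 in Hdac1-deficient enteroids, and 51.7% ± 1.72 in Hdac2-deficient enteroids.

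**Figure D3:**
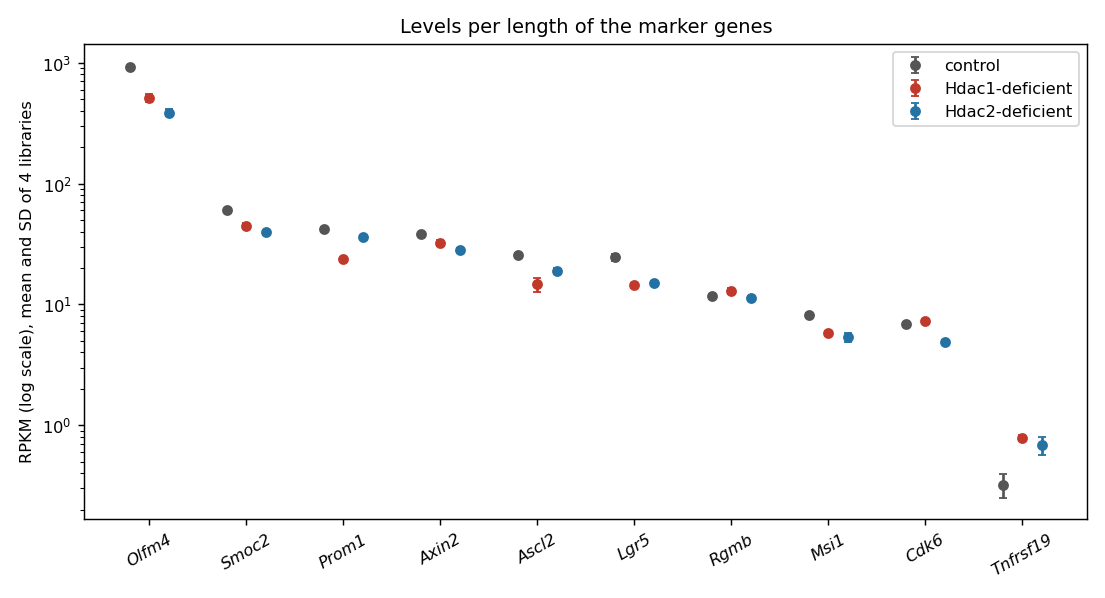
Mean RPKM with SD of 4 libraries on a log axis, with the 10 markers in the order of their control levels and 1 colour per group. Olfm4 stands above all others in each group, from 387.2 to 913 RPKM, and Tnfrsf19 is below 1 RPKM in each.

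The annotation places other genes over exons of some markers. Antisense genes overlap Axin2 by 209 bases (Gm11670, 0 to 8 counts per library), Prom1 by 424 bases (Gm16401, 20 to 41 counts) and Cdk6 by 368 bases (Gm17590, which is in neither table), and a gene on the same strand, Gm6999, overlaps Olfm4 by 153 bases. The library kit marks strand, but whether the counting used it is not given in the sources used here, so reads in those stretches are of uncertain origin.

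The genes whose levels followed Lgr5 most closely were Zfp703, Pprc1 and 9930021J03Rik, with Pearson correlations of 0.993, 0.992 and 0.992 over the log2(CPM + 1) values of the 12 libraries. For Olfm4 they were Cuedc2, Add3 and the marker Smoc2, each at 0.992. These are descriptions over 12388 genes with a mean of at least 1 CPM, in libraries that share their group differences, and carry no p. Of the 6, 4 lie on chromosome 19 (Pprc1, 9930021J03Rik, Cuedc2 and Add3), as do 3.6% of the genes compared and none of the 10 markers. That chromosome was picked out after these genes were seen, so the shares test nothing. Among the markers, Msi1 was the closest to Lgr5 at 0.937 and Axin2, after Smoc2, the closest to Olfm4 at 0.972, while Tnfrsf19 ran against both at -0.895 and -0.822.

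Other genes of the crypt base were read from a list of 22 further stem cell genes, of which 21 were tested. In each mutant 15 were lower, 4 higher and 2 missed the threshold. Thus 19 of 21 passed, against 64.6% and 62.3% of all tested genes, of which 31.9% and 30.9% were lower. The median log2 fold change was -0.26 for the Hdac1 and -0.35 for the Hdac2 deletion. Nr2e3, a nuclear receptor gene, fell in both, by log2 fold changes of -0.99 and -1.86 (SE 0.09 and 0.10, edgeR adjusted p = 4.1e-09 and 6.4e-13). Slc14a1, a urea transporter gene, had values of -0.32 and -1.58 (SE 0.05 and 0.06, edgeR adjusted p = 2.5e-05 and 4.9e-15). The mutants differed in it by 1.26 (adjusted p = 1.0e-14). Scn2b, a sodium channel subunit gene, went against the list in Hdac1-deficient enteroids, where it rose from 0.983 ± 0.175 to 12.7 ± 1.40 CPM (SD, n = 4), a log2 fold change of 3.72 (SE 0.13, adjusted p = 2.8e-15). In Hdac2-deficient enteroids it was at 0.593 ± 0.139 CPM, a log2 fold change of -0.70 (adjusted p = 0.017) that missed the threshold without control replicate 4, Hdac2-deficient replicate 2 or Hdac2-deficient replicate 4 (adjusted p = 0.051, 0.060 and 0.052) and with DESeq2 (adjusted p = 0.057).

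Of 12 tested Wnt target and feedback genes outside the 10 markers, 5 were lower and 7 missed the threshold in Hdac1-deficient enteroids, and 8 were lower, 1 higher and 3 missed it in Hdac2-deficient enteroids. The 5 of 12 that passed in the former are a smaller share than the 64.6% of all tested genes, and the 9 of 12 in the latter stand against 62.3%. Of all tested genes 31.9% were lower in the former and 30.9% in the latter. The median was -0.09 and -0.39. Ephb2, a receptor that places cells along the crypt, fell, with log2 fold changes of -0.66 and -0.50 (edgeR adjusted p = 3.8e-10 and 1.8e-11), as did Myc, a growth regulator, with values of -0.61 and -0.54 (adjusted p = 2.2e-11 and 1.7e-12). The feedback inhibitor Nkd1 had log2 fold changes of -0.60 and -0.89 (SE 0.17 and 0.18, adjusted p = 0.0042 and 2.4e-04). Notum, which inactivates Wnt proteins and was picked out after its values were seen, held 19 to 34 counts in the control libraries, 2 to 4 in the Hdac1-deficient and 0 to 1 in the Hdac2-deficient libraries, at least 6.74-fold lower in the latter if 3 counts in the shallowest library are taken as the floor.

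Of 10 tested Notch pathway genes, 6 were lower and 1 higher in Hdac1-deficient and 5 lower and 1 higher in Hdac2-deficient enteroids. The shares past the test in either direction, 7 and 6 of 10, are near the 64.6% and 62.3% of all tested genes. By that count the list does not stand apart. The 6 and 5 of 10 that were lower stand against 31.9% and 30.9% of all tested genes. Lfng, which modifies Notch receptors, fell, with log2 fold changes of -0.55 and -0.58 (edgeR adjusted p = 4.2e-08 and 1.3e-08), and the ligand gene Jag1 rose by 0.40 (adjusted p = 1.4e-06) in Hdac2-deficient enteroids. Its value in Hdac1-deficient enteroids was 0.15 (adjusted p = 0.057), and passed the test without Hdac1-deficient replicate 2 (0.21, adjusted p = 0.012) or replicate 3 (0.18, adjusted p = 0.045). The receptor gene Notch1 had log2 fold changes of -0.17 (adjusted p = 0.042) and -0.30 (adjusted p = 0.0012), and the former missed the threshold in 8 of 14 alternatives, 6 of them with 1 library left out and with adjusted p between 0.059 and 0.12.

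Of 3 genes tied to slowly cycling reserve stem cells, Bmi1 had log2 fold changes of -0.27 and -0.17 (edgeR adjusted p = 2.6e-04 and 0.0038) and Hopx of -0.18 and -0.23 (adjusted p = 3.6e-04 and 1.0e-05). Tert, which encodes the catalytic subunit of telomerase, rose by 0.76 (SE 0.08, adjusted p = 4.2e-07) in Hdac1-deficient enteroids and had a value of -0.13 (adjusted p = 0.13) in Hdac2-deficient enteroids, which was -0.19 (adjusted p = 0.012) without control replicate 1. The mutants differed in Tert by 0.89 (SE 0.08, adjusted p = 4.4e-09).

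Genes of the fetal-like or injured epithelium had medians of 0.41 and 1.18. In Hdac1-deficient enteroids 3 of 6 tested rose and 3 missed the threshold, a smaller share past the test than the 64.6% of all tested genes, and 1 was lower without control replicate 4, without Hdac1-deficient replicate 4 or with no filter on low counts. In Hdac2-deficient enteroids 5 of 5 rose, against 31.4% of all tested genes. Clu, a marker of revival stem cells, rose by log2 fold changes of 1.74 and 2.08 (SE 0.09 and 0.10, edgeR adjusted p = 6.3e-08 and 1.3e-07), and Anxa3 by 0.56 and 1.18 (adjusted p = 4.9e-07 and 2.4e-09).

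Cell cycle genes and genes of mature cells moved beside the markers. Of 15 proliferation genes, 13 were lower and 1 higher in each mutant, against 31.9% and 30.9% lower over all tested genes. The medians were -0.36 and -0.42. The higher gene was Pcna, with log2 fold changes of 0.17 (edgeR adjusted p = 4.8e-04) and 0.14. Mki67 missed the threshold in Hdac1-deficient enteroids (0.07, adjusted p = 0.66). By BrdU labelling, which is not part of these libraries, the study found no significant change in proliferation. Ccna2, the S and G2 phase cyclin, had log2 fold changes of -0.48 and -0.53 (edgeR adjusted p = 7.4e-11 and 7.2e-13), and the replication helicase genes Mcm3 and Mcm5 values of -0.43 and -0.40 in Hdac1-deficient and of -0.50 and -0.51 in Hdac2-deficient enteroids. All 8 enterocyte genes rose in both mutants, against 32.7% and 31.4% of all tested genes, with medians of 0.95 and 0.63. Apoa1, an apolipoprotein of absorptive cells, rose by 1.74 and 1.48 (adjusted p = 2.4e-17 and 3.0e-12), and Lct, the brush border lactase, by 2.86 and 2.03 (adjusted p = 7.4e-09 and 7.3e-06). The summed level of the enterocyte genes ranged from 8071 to 8601 CPM in control, from 16290 to 18444 CPM in Hdac1-deficient and from 12841 to 14412 CPM in Hdac2-deficient enteroids.

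Among secretory cells, 2 of 7 Paneth cell genes rose and 1 fell in Hdac1-deficient enteroids, and 5 of 7 rose in Hdac2-deficient enteroids. Of all tested genes 32.7% rose in the former and 31.4% in the latter, and 64.6% and 62.3% passed in either direction, so the Paneth cell count in Hdac1-deficient enteroids, 3 of 7, is below that share. Lyz1, the Paneth cell lysozyme, whose reads could have been split with its near-identical copy Lyz2, rose by 1.26 and 1.16 (edgeR adjusted p = 1.4e-11 and 8.5e-09), while Ang4, an antimicrobial ribonuclease with close paralogs, fell in the former, with a log2 fold change of -0.63, and rose by 0.18 in the latter (adjusted p = 6.7e-11 and 8.8e-05). Of 7 goblet cell genes 3 rose and 1 fell in Hdac1-deficient enteroids and 6 rose in Hdac2-deficient enteroids, with Zg16, a secretory granule protein, up by 1.36 and 1.86 (adjusted p = 1.6e-12 and 9.5e-21). The 4 of 7 goblet cell genes that passed in Hdac1-deficient enteroids are near the 64.6% of all tested genes. Of 6 enteroendocrine genes 4 rose and 1 fell in Hdac1-deficient and 3 rose and 2 fell in Hdac2-deficient enteroids, 5 of 6 past the test in each. The hormone genes Cck and Gip rose in both, Cck by 1.71 and 1.79 and Gip by 1.49 and 1.12, and Neurog3, the endocrine progenitor factor, had values of -0.54 and -0.89 (edgeR adjusted p = 2.4e-06 and 2.8e-10). Of 3 tested tuft cell genes none passed the test in Hdac1-deficient and 2, Trpm5 and Pou2f3, fell in Hdac2-deficient enteroids. Pou2f3 had a value of 0.38 (adjusted p = 0.069) in Hdac1-deficient enteroids and of 0.56 (adjusted p = 0.0015) without Hdac1-deficient replicate 4. Of the 6 general epithelial genes 2 were lower and 2 higher in Hdac1-deficient enteroids and 4 were higher in Hdac2-deficient enteroids, with Krt8 and Vil1 up in both and Krt18 down in the former, with a log2 fold change of -0.28, and up in the latter by 0.22. Whether the higher levels of mature cell genes had a part in the lower CPM of the markers was not tested.

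**Figure D4:**
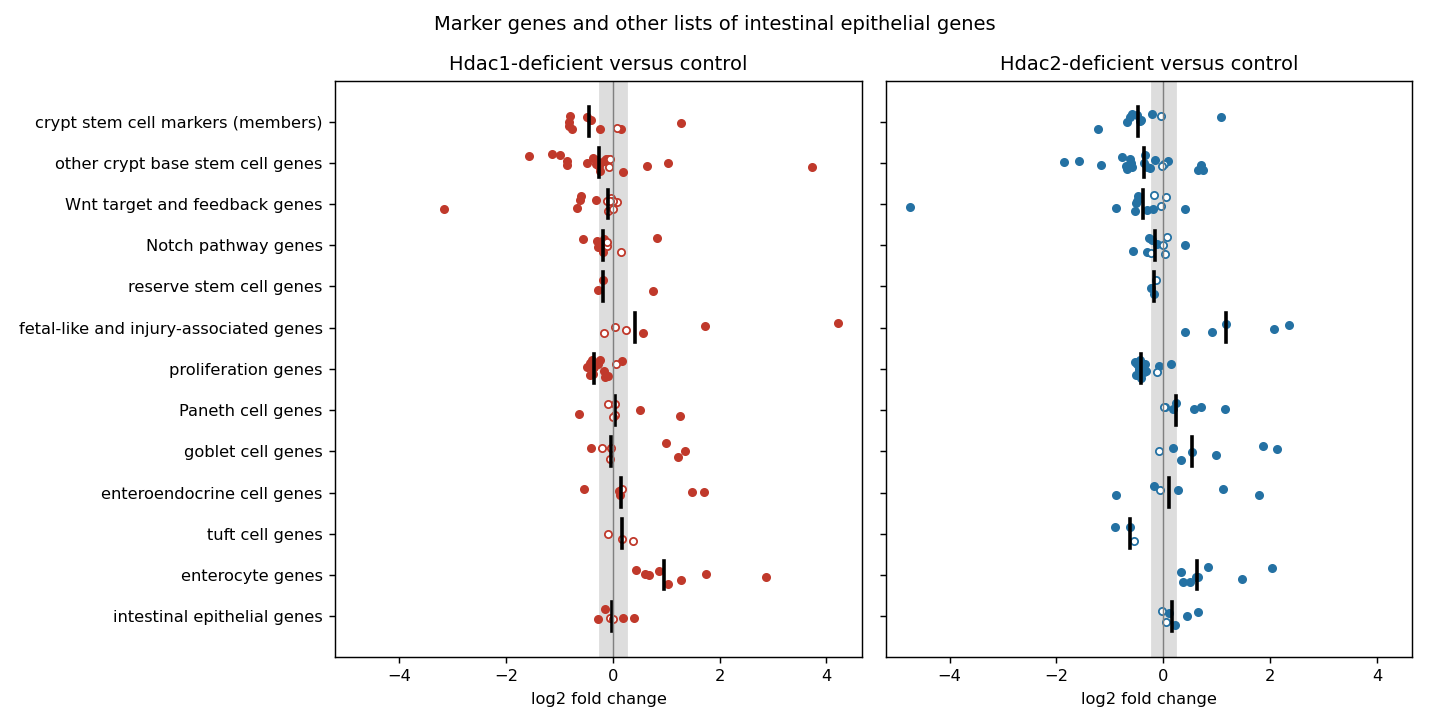
Log2 fold change against control of every tested gene of the lists, with Hdac1-deficient enteroids at the left and Hdac2-deficient enteroids at the right. Filled points passed an adjusted p of 0.05, the black bar is the list's median, and the grey band holds the middle 50% of all tested genes. The medians of the stem cell markers, other crypt base genes and proliferation genes lie below the band in both panels, and those of the enterocyte and the fetal-like genes above it.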

How the data were processed

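RNA-Seq gene counts of 12 jejunal enteroid libraries were used, 4 each of control, Hdac1-deficient and Hdac2-deficient cultures, grouped by the genotype in the sample titles. The authors aligned paired reads to GRCm38 with STAR (2.4.0f1 in the submitters' processing notes, which also name bcl2fastq 1.8.4) and deposited raw counts, whole numbers of reads per gene, in 1 table per mutant. The control counts are the same in both tables, and each table lists the genes whose counts sum to 10 or more. The counting program is not given in the sources used here. The authors' normalized values, fold changes and p-values in those tables were not used.

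Counts were tested with edgeR 4.0.16 in R 4.3.3 (quasi-likelihood F test with robust dispersions, TMM, filterByExpr, Benjamini-Hochberg adjustment over all tested genes). The comparisons of a mutant with control used 8 libraries, and that of the mutants all 12. SE is the size of the log2 fold change divided by the square root of F. Positions and exon lengths are from GENCODE M21, and upstream sequences from RefSeq. RPKM divides CPM by the summed exon length in kilobases. The alternatives were DESeq2 1.42.0, no filter on low counts, library size alone or relative log expression size factors for scaling, the replicate number as a block, all 12 libraries in 1 fit or the 8 mutant libraries alone, and each library left out in turn. The edgeR step was tested on simulated counts. Figures used Python 3.11.15 and matplotlib 3.10.9.

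The 10 markers and the other gene lists were chosen with earlier results of these data known. The genes named are the markers, Hdac1 and Hdac2, up to 3 genes per other list with the largest log2 fold change against control in either mutant among those past the test with a mean of at least 1 CPM, listed genes at 0 counts, and the 3 genes most correlated with Lgr5 and with Olfm4. Notum, Vim, Col1a1, Pdgfra, Epcam, Pcna and Mki67 were named after their values were seen. One gene that the rule named is not reported here.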

Additional observations from a re-analysis of the deposited data

Results flagged for a closer look

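Among the 30 groups of 4 libraries of the markers, 2 had 1 library far from the others by Dixon's test at 95%, which flags about 1 group in 20 by chance. Both were in Hdac1-deficient replicate 4. Lgr5 stood there at 135.7 CPM, against 150.1 to 151.8 CPM in the other 3 libraries, and Cdk6 at 96.6 CPM, against 102.9 to 103.7 CPM. The same library stood apart for Myc (119.4 CPM against 131.1 to 132.9), Tert (30.6 CPM against 23.9 to 24.8) and Apoa1 (2565 CPM against 2401 to 2424). Other single libraries apart were Hdac2-deficient replicate 4 for Hdac1 (68.8 CPM against 76.8 to 78.4), control replicate 4 for Myc (188.7 CPM against 201.7 to 203.1), and control replicate 1 for Nr2e3 (14.1 CPM against 11.3 to 11.6) and for Itgam (0.939 CPM against 0.793 to 0.813). What sets these libraries apart was not tested.

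The 2 mutant groups differed for 7 of the 10 markers by the direct test of edgeR, against 45.9% of all tested genes. Hdac1-deficient minus Hdac2-deficient log2 differences were 0.41 for Olfm4, 0.18 for Smoc2, 0.19 for Axin2, 0.57 for Cdk6 and 0.20 for Rgmb (adjusted p between 1.5e-12 and 1.5e-04), and -0.36 for Ascl2 and -0.60 for Prom1 (adjusted p = 3.0e-04 and 4.1e-15).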

How the results depend on the processing

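The direction of every marker's difference was the same in all 460 combinations of marker, comparison and alternative. The side of the threshold was the same in 452 and moved past it in 8, those of Cdk6 in Hdac1-deficient enteroids (0.09, adjusted p = 0.048 with relative log expression size factors, beside the libraries named above) and of Msi1 between the mutants (0.15, adjusted p = 0.029 with library size alone, beside the libraries named above). The count of markers more than 2-fold different in Hdac2-deficient enteroids, 2, ran from 1 to 2 with each library left out, the lower count without control replicate 4 or Hdac2-deficient replicate 2, where Tnfrsf19 was under 2-fold. Of the other named genes' values, 1705 kept their side, 27 lost the call and 16 gained it. No source says that same-numbered libraries belong together, and their deviations from the group means correlated between -0.181 and 0.191, at most 0.1 in 8 of 12 pairs, against -0.186 to 0.218 for different numbers. With the replicate number as a block, 9, 9 and 7 markers passed the test in the 3 comparisons, as without it, and 4383 and 4540 genes in all were lower and higher in Hdac1-deficient enteroids. Tnfrsf19, at 26 to 121 counts, is the marker whose value the depth limits most.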
